A study of Homo sapiens with 8 samples.

Results

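In COV318, a cell line from ovarian cancer, 203 genes were read at high level in both control libraries and at 3 or fewer counts in both libraries of cells made to express MGP. They are called silenced here, a word for the level of reads and not for a mechanism. A gene was chosen by its measured values: no more than 3 raw counts in either COV318-MGP library, bulk or OCSC, together with a normalized count of 200 or above in each of the COV318-CTR pair. PAX8, SOX17, KRT7, MSLN, DPPA4 and all symbols that start with COL, HOX, PCDH or CLDN were left out by name, which removed 14 genes that met the counts. The 203 genes were 1.01% of the 20152 genes not left out by name, and 2.24% of the 9045 of these that reached the minimum of 200 in both controls. The table holds 20339 genes. Since the values of the 4 COV318 libraries picked the genes, the drop in COV318-MGP is given as a description, and the measures free of the choice are the 4 OVCAR3 libraries, the place of the genes in the genome and their promoter sequence.

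The data were 8 RNA-seq libraries, 1 for each condition, from the ovarian cancer lines OVCAR3 and COV318. COV318-CTR carried an empty lentiviral vector and COV318-MGP the same kind of vector with MGP cDNA, both packaged in HEK293T cells and selected with puromycin. OVCAR3-MGPKO was made with CRISPR-Cas9 and a pair of guides, followed by isolation of clones, and OVCAR3-CTR was its control. Each line was sequenced as adherent bulk cells and as OCSC (ovarian cancer stem cells), taken from second-generation spheres in serum-free medium with EGF and FGF2. Cells were taken at passage 4 for OVCAR3 and at passage 18 for COV318. Without replicates no p-value can be given, and the intervals below cover counting error only.

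MGP encodes matrix Gla protein, a secreted protein that binds calcium and is known as an inhibitor of calcification. Cells of serous ovarian carcinoma resemble the epithelium of the Mullerian duct and secrete protease inhibitors and kallikreins. Interferon-stimulated genes form an antiviral program that interferon signalling switches on through short promoter elements. Imprinted genes, some zinc finger genes of chromosome 19 and MGMT are textbook examples of genes that DNA methylation can keep off.

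In bulk COV318 cells MGP itself went from 1 count in the control to 40393, and in OCSC from 0 to 28694. In OVCAR3 it had 0 counts in bulk of both labels, 1 in OVCAR3-CTR OCSC and 2 in OVCAR3-MGPKO OCSC, so its counts could not check the OVCAR3 labels. The authors report MGP protein in OVCAR3, and its loss in the knockout by RT-qPCR, western blot and immunofluorescence. Total counts on genes ran from 12294591 to 37393919 per library, and 3 counts equal 1.62 to 4.63 normalized counts.

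The COV318-MGP libraries stood apart from COV318-CTR in both directions. The mirrored choice, with the roles of COV318-CTR and COV318-MGP exchanged, was met by 104 of 9038 genes (1.15%). The same choice between the OVCAR3 libraries of one label and the other found 0 genes in either direction. Of 15 markers of ovarian carcinoma epithelium, all were above 3 counts in both COV318-CTR libraries, whereas PAX8, SOX17, KRT7, MSLN, KRT19 and MUC16 were at 3 or fewer in both COV318-MGP libraries. By a log2FC of at least 1, 12 of the 15 were lower in both cultures and 0 higher. In OCSC, KRT8 and KRT18 went the other way, from 106 to 983 and from 2396 to 4810 counts. In bulk both were lower, from 1197 to 556 and from 36058 to 2573. The summed normalized count of the 15 was 62807 in COV318-CTR bulk and 3345 in COV318-MGP bulk, and 30300 and 9165 in OCSC. Of 7 markers of the HEK293 lineage, NEFL had 0 and 0 counts in COV318-CTR and 2564 and 857 in COV318-MGP, NEFM had 0 and 0 against 891 and 490, and PAX2 had 0 and 0 against 9 and 12. INA had 22 and 17 against 102 and 62, NEFH 14 and 3 against 0 and 0, and LIN28B 4152 and 723 against 4964 and 1770. By a log2FC of at least 1, 4 of the 7 were higher and 2 lower in both cultures. The summed normalized count of that list was lower in COV318-MGP, at 12824 and 4692 in bulk and 6475 and 4568 in OCSC. DPPA4 held most of that sum in COV318-CTR, with 19621 and 3614 counts in COV318-CTR and 2 and 0 in COV318-MGP. Among 8 mesothelial markers, UPK3B, LRRN4 and ITLN1 were at 3 or fewer counts in both COV318-MGP libraries, though ITLN1 had only 12 and 1 counts in COV318-CTR. GPM6A of the same list went the other way, with 1 and 0 counts in COV318-CTR and 845 and 179 in COV318-MGP. The list summed to 9979 and 955 in bulk and 6271 and 547 in OCSC. Endothelial markers summed to 1104 and 45.6 in bulk and 1274 and 47.2 in OCSC. In the COV318 libraries leukocyte markers summed to at most 90.2, and fibroblast markers went from 721 to 1071 in bulk and from 581 to 1344 in OCSC. Of the 9 fibroblast markers 3 were lower and 2 higher by a log2FC of at least 1 in both cultures, with FBLN1 at 385 and 130 counts in COV318-CTR against 1358 and 687 in COV318-MGP, and THY1 at 56 and 37 against 0 and 0. KRT19, UPK3B, LRRN4 and VWF are among the silenced genes. PAX8, SOX17, KRT7, MSLN and DPPA4 met the same counts and were left out by name. The fall of all these genes is tied to the choice and is no separate support. The labelled identity of the COV318-MGP libraries is in question and was not tested here. The authors state that cell lines were authenticated by short tandem repeats, without naming COV318-MGP. An effect of MGP and a difference between the cells sequenced cannot be told apart in any comparison of COV318-MGP with COV318-CTR below. The part of the markers in the results was not tested. In bulk RNA, fewer cells of a type and less RNA per cell cannot be told apart.

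The 203 genes together held 534192 counts in COV318-CTR bulk and 209 in COV318-MGP bulk. In OCSC they held 222586 and 89 counts. On normalized counts, what remained in COV318-MGP was 0.0400% of COV318-CTR in bulk (95% exact interval 0.0347 to 0.0458) and 0.0385% in OCSC (0.0309 to 0.0474). At 0 counts in both COV318-MGP libraries were 73 of the genes, and 157 were at 0 in at least 1. With 3 counts put in place of the COV318-MGP value, the smaller of the bulk and OCSC ratios ran from 46.7 to 19535 with a median of 140.5, and it was at least 1000 for 8 genes. Most were protein-coding, 160 in all, beside 33 long non-coding RNA genes, 6 transcribed pseudogenes, 3 small nucleolar RNA genes and 1 that could not be placed.

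**Figure D1:**
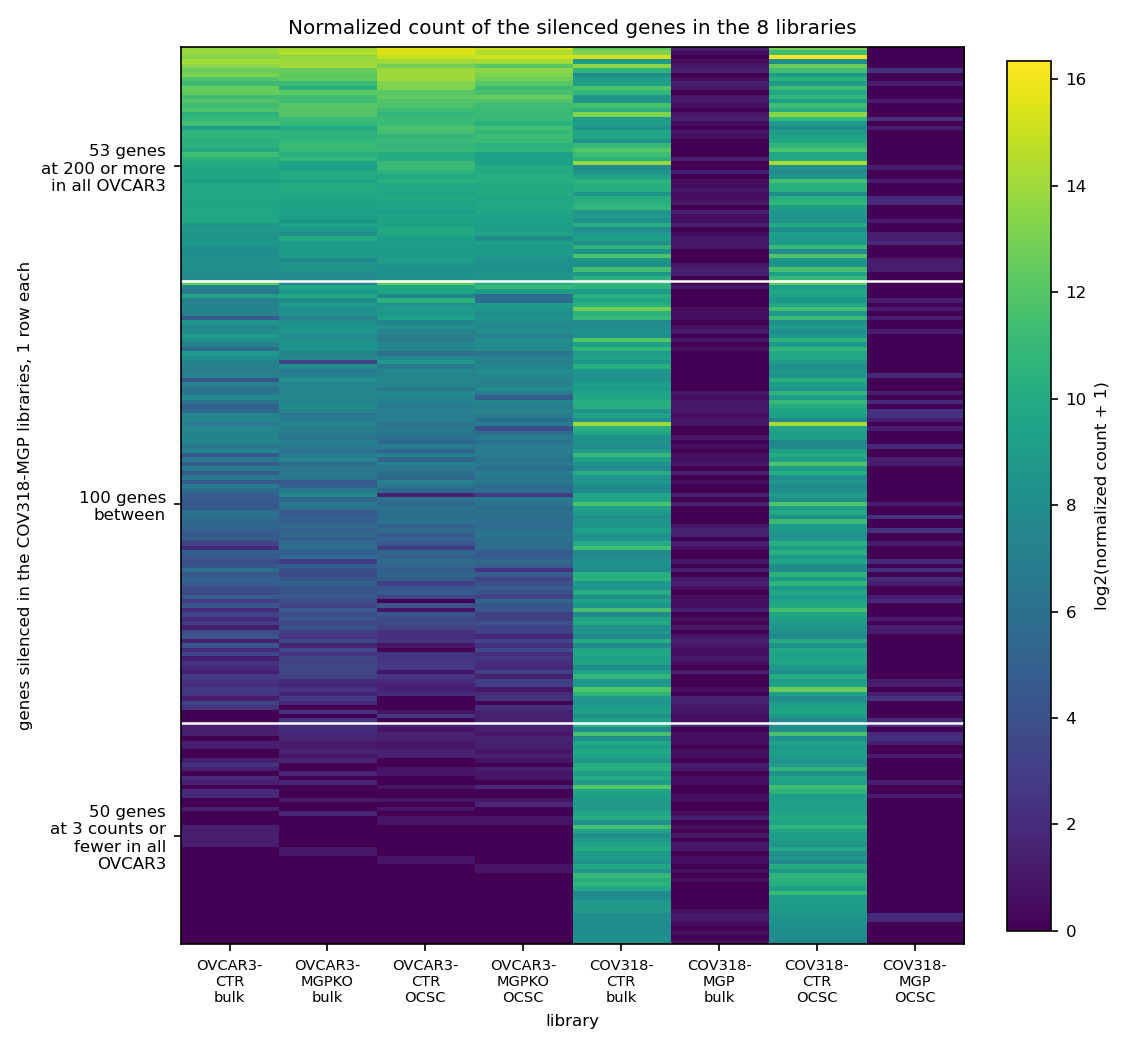
Each row is 1 of the 203 silenced genes and each column 1 of the 8 libraries, with colour for log2(normalized count + 1). Rows are grouped by level in OVCAR3, where 53 genes were at 200 or more in all libraries, 50 at 3 counts or fewer in all, and 100 in between, while both COV318-MGP columns are dark throughout.

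The limits of the choice cut through a continuous range. Just inside the minimum were LINC02450 with 201 normalized counts in the lower COV318-CTR library, SELENOOLP with 202 and LOC101928516 with 204, and just outside were ZNF682 with 199.8, OR3A1 with 197 and CCDC144NL-AS1 with 195. Just inside the count limit stood ZNF492, ZBED2 and CAVIN2 with 3 counts in COV318-MGP bulk. GBP1, ZNF347 and ZNF702P missed it by 1 count, although GBP1 had 7052 and 2278 counts in COV318-CTR and 4 and 0 in COV318-MGP.

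SLPI and CP had the largest ratios to 3 counts of all silenced genes, taking the smaller of bulk and OCSC for each gene. SLPI, the secretory leukocyte protease inhibitor, lies on chromosome 20 (45252239 to 45254564, GRCh38.p14) and had 76117 counts in COV318-CTR bulk, 56454 in COV318-CTR OCSC and 0 in both COV318-MGP libraries. It was at least 24848-fold lower in bulk and at least 19535-fold lower in OCSC, taking 3 counts in the COV318-MGP library as the floor. CP, the copper-binding plasma protein ceruloplasmin, had 27657 and 13632 counts in COV318-CTR and 0 in both COV318-MGP libraries, at least 9028-fold and 4717-fold lower. S100A6, a small calcium-binding protein, went from 9306 to 3 counts in bulk, a ratio of 3038 (1039 to 14734), and from 5499 to 0 in OCSC. KRT19 and EHF were the 2 silenced of 31 listed genes of epithelial junctions and differentiation at the minimum. That share was 6.45%, against 2.24% of all genes at the minimum. KRT19, a keratin of simple epithelia, had 17608 counts against 1 in bulk and 1718 against 0 in OCSC. EHF, an epithelial transcription factor of the ETS family, had 1007 against 1 and 955 against 0. FLG, filaggrin of the epidermis, had 3213 and 3229 counts in COV318-CTR and 0 in both COV318-MGP libraries. RIPOR3 stood at 6988 against 1 and 4180 against 0, and the non-coding LOC613266 at 6878 and 2587 against 0 and 0.

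Of the list of Mullerian and ovarian carcinoma genes, 17 were at the minimum in COV318-CTR and 6 of these were silenced (35.3%, against 2.24% of all genes at the minimum). These were SLPI, CRIP1, KLK11, WFDC2, PNOC and KLK10. This list and the other gene lists were chosen with earlier results of these data known, so their shares are description only. WFDC2, the gene of the serum marker HE4, had 688 counts against 2 in bulk, a ratio of 337 (92.9 to 2787), and 1155 against 0 in OCSC. CRIP1, a small LIM domain protein, had 6949 against 2 and 1657 against 0. The neighbouring kallikrein protease genes KLK10 and KLK11 had 1203 and 1432 counts in COV318-CTR bulk against 2 and 1 in COV318-MGP bulk. Another 9 of the 17 were lower by a log2FC of at least 1 in both cultures without meeting the choice, 15 of 17 in all, and 0 were higher. Over all 9045 genes at the minimum, 16.0% were lower and 4.74% higher by that rule. CDH6, a cadherin of the list, just missed the choice with 26928 counts against 5 in bulk and 1921 against 0 in OCSC.

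**Figure D2:**
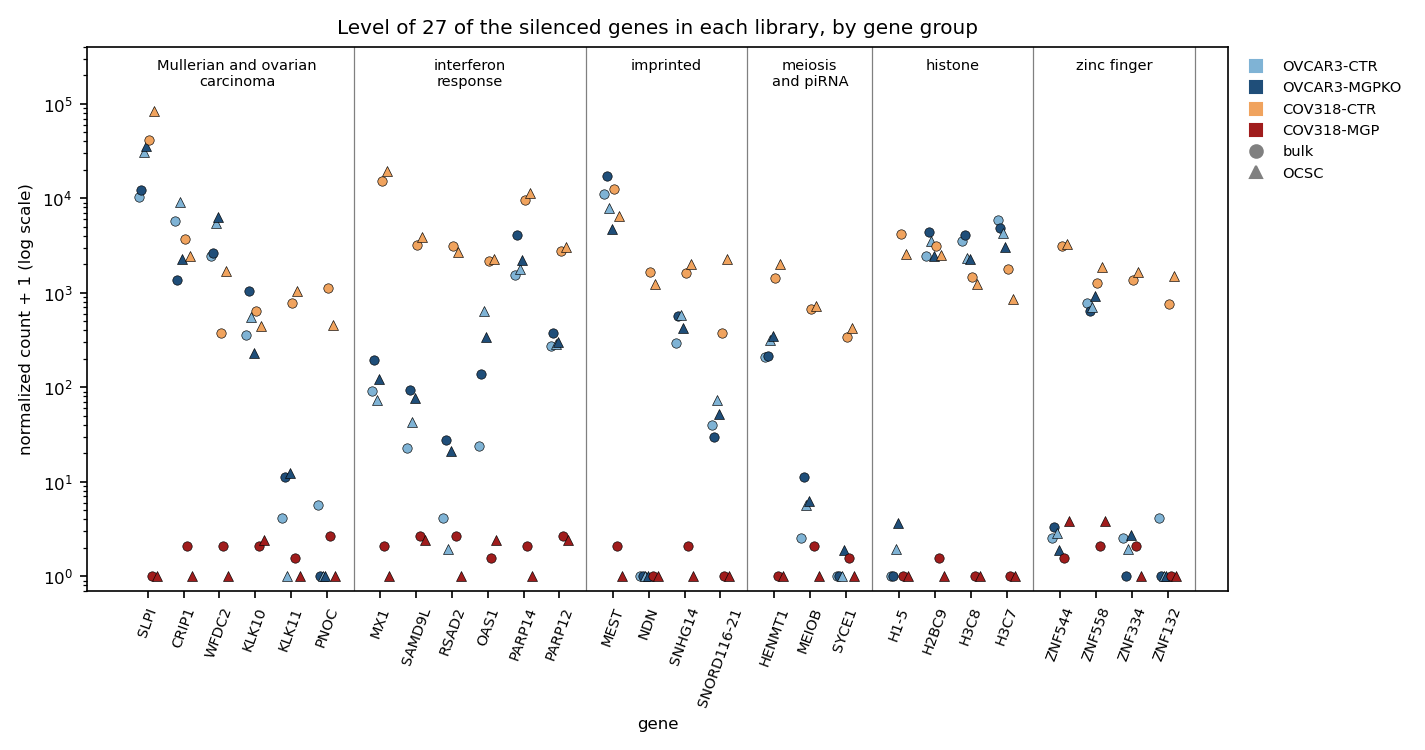
The vertical axis gives normalized count + 1 on a log scale for 27 silenced genes in 6 groups, with colour for the label of the library, circles for bulk and triangles for OCSC. COV318-MGP points stay at the bottom in every gene, whereas OVCAR3 points lie near COV318-CTR for SLPI, MEST or H3C8 and near the bottom for NDN, H1-5 or ZNF544.

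Interferon-stimulated genes formed a second group. Of the 50 listed interferon response and antigen presentation genes at the minimum, 10 were silenced (20.0%, against 2.24% of all genes). These were MX1, SAMD9L, RSAD2, OAS1, CMPK2, MX2, GBP3, OAS2, XAF1 and STAT5A. STAT5A entered the list by the start of its symbol, as did STAT5B and STAT6. MX1, a GTPase that blocks virus replication (chromosome 21, 41420558 to 41459214), had 28247 counts in COV318-CTR bulk and 12992 in COV318-CTR OCSC, against 2 and 0 in COV318-MGP. Its ratio in bulk was 13832 (3829 to 114217), and in OCSC it was at least 4496-fold lower. RSAD2, which encodes the antiviral enzyme viperin, had 5811 and 1824 counts against 3 and 0. OAS1, a sensor of double-stranded RNA, had 4069 and 1529 against 1 and 1. SAMD9L, an antiviral and growth-restraining protein, had 5959 and 2648 against 3 and 1. XAF1 and GBP3 had 0 counts in both COV318-MGP libraries.

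The rest of that list followed the same direction at a higher residual level. In all, 46 of the 50 were lower by a log2FC of at least 1 in both cultures, or 92.0%, and 0 were higher. The median log2FC over the 50 was -6.76 in bulk and -6.67 in OCSC. It was -6.84 and -6.42 with values of 3 or fewer counts set to 3 and without the 1 added to normalized counts. IFIT1 kept 308 and 47 counts of 13443 and 6216. STAT6 and STAT5B, which like the silenced STAT5A serve other cytokines, were higher by less than 1 in both cultures.

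PARP, Schlafen and DDX60 genes, a list written after the silenced genes were seen, held 5 silenced genes of 16 at the minimum. That was 31.25%, against 2.24% of all genes at the minimum. PARP14, an ADP-ribosyltransferase, had 17692 counts against 2 in bulk, a ratio of 8663 (2398 to 71540), and 7644 against 0 in OCSC. PARP12 had 5135 against 3 and 2079 against 1, and DDX60L, a helicase-like protein, 2377 against 2 and 1327 against 2. SLFN12 and SLFN13 lie side by side on chromosome 17 and had 0 and 3 counts in COV318-MGP bulk against 2511 and 2214. PARP1, the DNA repair enzyme of the same list, was higher, with 14108 counts against 55299 in bulk and 4612 against 16784 in OCSC.

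The interferon-stimulated response element is the promoter element these genes are known for, and its core was searched as GAAANNGAAA on both strands in RefSeq promoter windows of 300 bases (250 before to 50 after a start, GRCh38.p14). Of the 10 silenced interferon genes, 8 had a window and 3 of these held the letters, compared with 3.98% of the 14715 genes of the table with a window and 3.57% of all 35116 windows. Of the 50 listed genes at the minimum, 37 had a window and 20 held the letters. Windows were found for 142 of the 203 silenced genes, under 80%, so no share is given over all of them. Coverage was also under 80% for the 50 listed genes (74.0%) and for the genes of the table (72.3%). The shares above therefore describe only genes with a window. Stretches before an annotated start of 4 silenced genes are printed to show these letters, with capitals for each match on either strand (the reverse strand reads TTTCNNTTTC). They were chosen because they hold a match. Of them only MX1 is on the interferon list. PARP14, PARP12 and DDX60L are from the list written after the silenced genes were seen, over which matches were not counted. A match describes the sequence and is not a measured binding site.
MX1 (chromosome 21, 41431819 to 41431898, plus strand): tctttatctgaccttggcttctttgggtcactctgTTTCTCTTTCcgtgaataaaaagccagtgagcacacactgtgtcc
PARP14 (chromosome 3, 122680775 to 122680838, plus strand): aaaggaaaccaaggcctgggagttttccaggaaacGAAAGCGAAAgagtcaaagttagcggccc
PARP12 (chromosome 7, 140062952 to 140062996, minus strand): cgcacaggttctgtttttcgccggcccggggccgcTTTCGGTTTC
DDX60L (chromosome 4, 168480528 to 168480607, minus strand): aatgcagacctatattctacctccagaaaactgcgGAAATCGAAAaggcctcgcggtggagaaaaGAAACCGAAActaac

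MGMT, which repairs DNA by removing alkyl groups from guanine, had 799 and 246 counts in COV318-CTR and 1 and 0 in COV318-MGP. The ratio was 782 (140 to 30944) in bulk, and in OCSC it was at least 85.1-fold lower.

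A small germline group came from a list written after the silenced genes were seen. Of 22 listed meiosis and piRNA genes, 6 were at the minimum and 4 of these were silenced (66.7%, against 2.24% of all genes). HENMT1, the methyltransferase that modifies the end of piRNAs, had 2687 and 1341 counts in COV318-CTR and 0 in both COV318-MGP libraries. MEIOB, which binds single-stranded DNA in meiosis, had 1239 and 491 against 2 and 0. SYCE1, a part of the synaptonemal complex, had 633 and 283 against 1 and 0, and MEIOC 620 and 178 against 2 and 1. SMC1B, a meiotic cohesin, kept 10 and 5 counts of 798 and 312, and MND1 had 415 and 148 counts in COV318-CTR and 595 and 299 in COV318-MGP. MAGEA11 was the 1 silenced gene of 20 cancer-germline and pluripotency genes at the minimum (5%, against 2.24% of all genes).

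Imprinted genes are read from 1 parental copy. Of the 17 listed at the minimum, MEST and NDN were silenced and 10 were lower by a log2FC of at least 1 in both cultures. These shares were 11.8% and 58.8%, against 2.24% and 16.0% of all genes at the minimum. MEST, which is read from the paternal copy, had 23229 and 4323 counts in COV318-CTR against 2 and 0 in COV318-MGP. NDN, paternal as well, had 3067 and 829 against 0 and 0. PEG10 and PEG3, also paternal, missed the choice with 13 and 9, and 4 and 0 counts, left of 6247 and 1655, and of 1498 and 628. GRB10 was the 1 listed gene that was higher, with 1142 and 540 counts against 3715 and 1556.

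NDN lies in the imprinted domain of chromosome 15 whose paternal genes are lost in Prader-Willi syndrome, and 8 genes of the domain were silenced. SNHG14, the long host transcript of its small nucleolar RNAs, had 3005 and 1361 counts against 2 and 0. PWARSN, PWAR5 and PWAR6, non-coding genes that follow each other inside it (24981994 to 25036490), had 455, 1325 and 405 counts in COV318-CTR bulk and 0 in both COV318-MGP libraries. SNORD116-18, SNORD116-20 and SNORD116-21, a run of small nucleolar RNA copies (25085384 to 25088896), had 429, 407 and 696 counts in COV318-CTR bulk and 0 in COV318-MGP. Another 11 SNORD116 copies of the table, below the minimum in at least 1 COV318-CTR library, also had 0 counts in both COV318-MGP libraries. At the borders of the domain, MKRN3 kept 212 and 95 counts of 752 and 267, and UBE3A 3861 and 1484 of 5206 and 1924. PWARSN, PWAR5, PWAR6 and the SNORD116 copies overlap SNHG14, and the copies resemble each other. Reads cannot be assigned between these with certainty, and a run inside SNHG14 is not several independent genes. NDN (23685400 to 23687305) and MKRN3 lie outside SNHG14 (24823608 to 25419462).

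**Figure D3:**
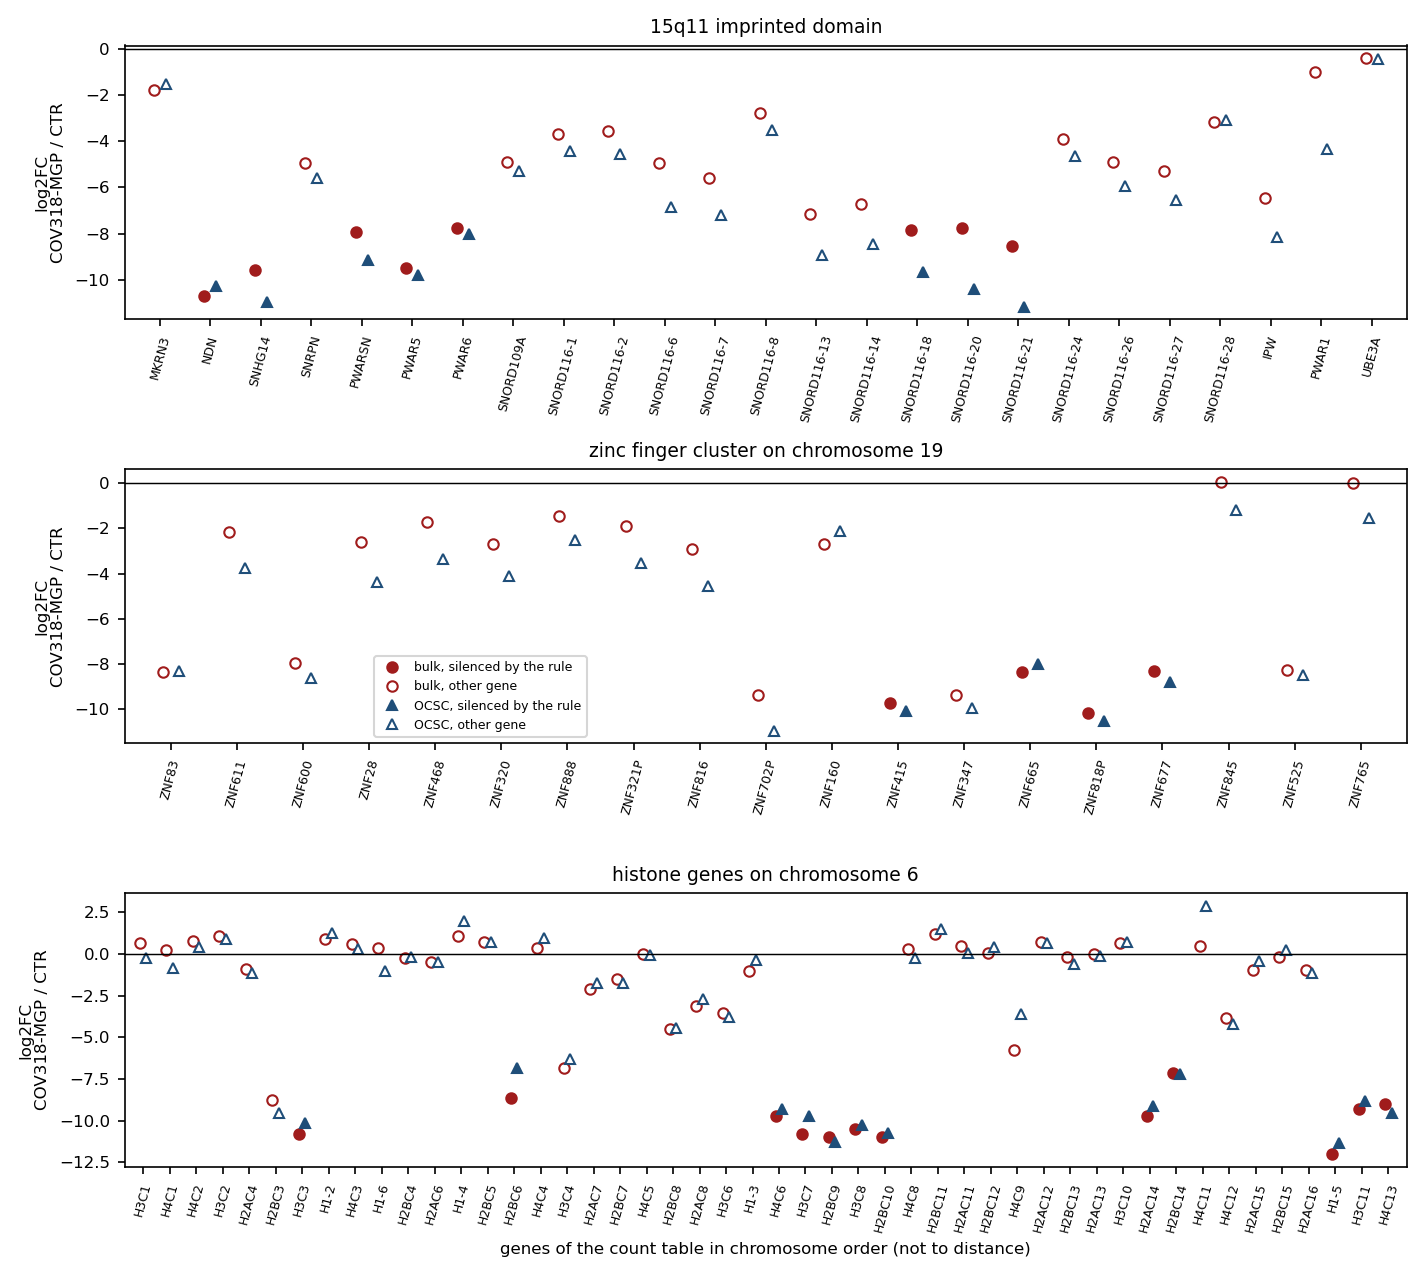
Each panel follows the genes of the count table in chromosome order, not to distance, and plots the log2FC of COV318-MGP over COV318-CTR, with circles for bulk, triangles for OCSC and filled symbols for silenced genes. UBE3A lies near 0 and MKRN3 at -1.79 and -1.54 at the edges of the imprinted domain, ZNF845 lies at 0.07 and -1.17 beside silenced ZNF677, and silenced histone genes stand among others near 0.

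Zinc finger genes were the most numerous group. Of 385 listed at the minimum, 33 were silenced (8.57%) and 120 were lower by a log2FC of at least 1 in both cultures (31.2%), against 12 that were higher. Over all genes at the minimum, 2.24% were silenced and 16.0% were lower by that rule. Their proteins bind DNA, and many carry a KRAB domain that recruits repressors to transposable elements. ZNF544 had 5823 and 2191 counts in COV318-CTR and 1 and 2 in COV318-MGP. ZNF558 had 2358 and 1255 against 2 and 2, ZNF334 2514 and 1118 against 2 and 0, and ZNF132 1406 and 1006 against 0 and 0.

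Chromosome 19 held 32 of the 203 genes, 5.49% of its 583 genes at the minimum and the highest share of any chromosome. Of the 32, 26 were zinc finger genes, so that 26 of 189 zinc finger genes at the minimum on chromosome 19 were silenced (13.8%) against 7 of 196 elsewhere (3.57%). Among the other 394 genes of chromosome 19 at the minimum 6 were silenced, or 1.52%. Of the 104 genes of the mirrored choice 2 lay on chromosome 19, and 0 of them were zinc finger genes. Side by side stood ZNF506, ZNF253 and ZNF93 (19792711 to 19935575), with 1341, 1248 and 1791 counts in COV318-CTR bulk and 2, 1 and 0 in COV318-MGP bulk. ZNF665, ZNF818P and ZNF677 (53162424 to 53254873) had 938, 2133 and 928 counts against 1, 0 and 1. Other genes of this second cluster fell without meeting the choice. Among them were ZNF525, with 2156 and 928 counts against 5 and 2, and ZNF347, with 3919 and 1611 against 4 and 1. ZNF845, close by, had 1111 and 440 counts in COV318-CTR and 1139 and 202 in COV318-MGP. ZNF765 had 1086 and 427 against 1063 and 154. Both were level in bulk and lower in OCSC (log2FC -1.17 and -1.52), so that neighbours of one family differed in bulk. Zinc finger genes are related in sequence, and reads shared between copies could be split in counting.

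Replication-dependent histone genes, a list written after the silenced genes were seen, held 12 silenced genes of 49 at the minimum. That was 24.5%, against 2.24% of all genes at the minimum. H1-5, a linker histone, had 7702 and 1741 counts in COV318-CTR and 0 in both COV318-MGP libraries. H2BC9 had 5867 and 1697 against 1 and 0, H2BC10 3707 and 1143 against 0 and 0, and H3C8 2726 and 836 against 0 and 0. On chromosome 6, H4C6, H3C7 and H2BC9 follow each other (26240393 to 26252075), as do H1-5, H3C11 and H4C13 (27866792 to 27873534). H3C8 and H2BC10 are the next histone genes after the first of these stretches, and the one after them, H4C8, had 4708 and 1461 counts against 5712 and 1286. H1-4 was higher, with 6357 and 1199 against 13310 and 4932. Copies of H3 and H4 genes encode the same or nearly the same protein, and reads may be shared between them. Histone transcripts of this class and small nucleolar RNAs lack the usual poly(A) tail, and which library kit served these samples is not given in the sources used here.

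Over the genome, 48 of the 202 silenced genes that could be placed lay next to another silenced gene in the order of the count table (23.8%), in 6 runs of 3 and 15 runs of 2. For the 104 genes of the mirrored choice it was 14 (13.5%). A smaller set has fewer neighbours by its size alone, so these shares are not like for like. The pairs included MX2 and MX1, CMPK2 and RSAD2, SLFN12 and SLFN13, and KLK10 and KLK11. Overlapping and antisense genes count in these runs, and whether strand was used in counting is not given in the sources used here.

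**Figure D4:**
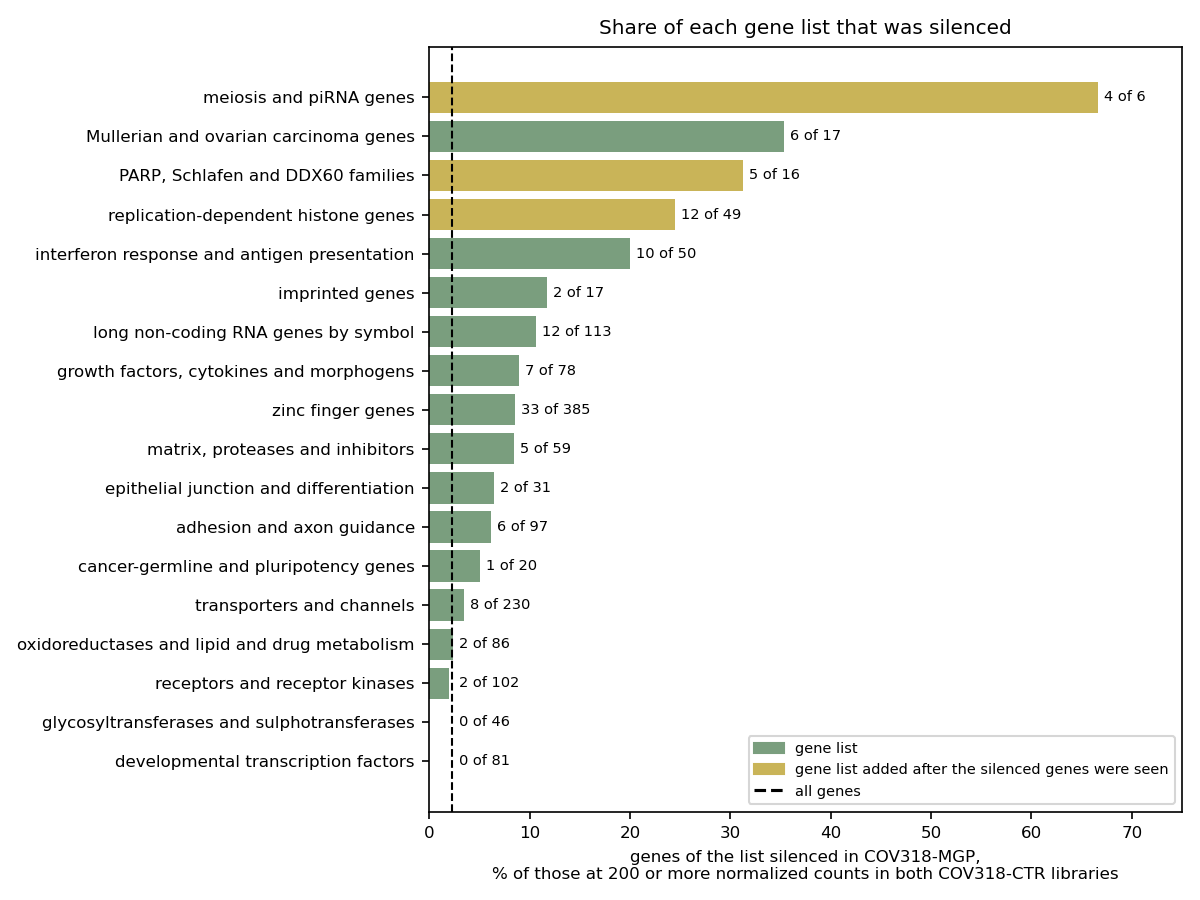
Bars give, for 18 gene lists, the silenced genes as a percentage of the genes of the list at the minimum of 200 in both controls, with both numbers beside each bar and a dashed line at 2.24% for all genes. Mullerian (6 of 17), interferon (10 of 50) and zinc finger genes (33 of 385) lie above the line, whereas 0 of 81 developmental transcription factors and 0 of 46 glycosyltransferases were silenced. All lists were chosen with earlier results of these data known.

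Signalling genes held 7 silenced growth factors, cytokines and morphogens of 78 at the minimum (8.97%, against 2.24% of all genes). CCL28, a chemokine of mucosal epithelia, had 2884 and 1888 counts in COV318-CTR and 1 and 1 in COV318-MGP. BTC, a ligand of the EGF receptor, had 599 and 607 against 0 and 0. WNT10A, a WNT ligand, had 2435 and 428 against 0 and 0, and SEMA5A, a semaphorin that guides axons, 2710 and 283 against 1 and 0. Receptors showed 2 silenced genes of 102 at the minimum, 1.96% and so close to the share of all genes. They were TNFRSF10A, a death receptor of TRAIL, with 1283 and 247 counts against 0 and 0, and GPR143, a receptor of pigment cells, with 1210 and 347 against 3 and 3.

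Adhesion genes held 6 silenced of 97 at the minimum (6.19%, against 2.24% of all genes). ICAM1, a ligand of leukocyte integrins, had 7202 and 1006 counts against 2 and 0, and LRRN1 2888 and 339 against 2 and 0. LRRN4, which the mesothelial markers also hold, had 1436 and 406 against 1 and 1, and the contactin CNTN4 701 and 313 against 3 and 0. Of proteases, inhibitors and matrix genes 5 of 59 were silenced (8.47%). MMP7, matrilysin, had 5032 and 363 counts against 1 and 0, and TMPRSS3, a membrane serine protease, 934 and 442 against 0 and 0. Transporters and channels gave 8 of 230 (3.48%, not far from the share of all genes). ATP2B2, a calcium pump, had 800 and 1326 counts against 3 and 3, KCNE3, a potassium channel subunit, 561 and 2481 against 2 and 1, and KCNJ16, an inward rectifier, 591 and 314 against 1 and 0. SLC34A2, a phosphate transporter, had 495 and 330 against 0 and 0. Genes of oxidoreductases and of lipid and drug metabolism showed 2 of 86 (2.33%, close to the share of all genes), GSTT1 with 462 and 189 counts against 0 and 0 and UGT2B7 with 610 and 158 against 0 and 0. Long non-coding RNA genes with a systematic symbol gave 12 of 113 (10.6%). Among them were LINC01287 with 2239 and 937 counts against 1 and 0, LINC00847 with 845 and 442 against 0 and 0, and LINC00667 with 1737 and 437 against 1 and 0.

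In OVCAR3, whose libraries the choice did not use, the silenced genes were split. At 3 or fewer counts in all 4 OVCAR3 libraries were 50 of the 203 (24.6%), compared with 1.05% of the 9045 genes at the minimum in COV318-CTR. At 200 or more normalized counts in all 4 were 53 (26.1%), compared with 86.2%. The median silenced gene stood at 33.9 to 57.7 normalized counts in the OVCAR3 libraries and at 595 and 608 in COV318-CTR. Of the genes of the mirrored choice, 36 of 104 (34.6%) were at 3 or fewer counts in all OVCAR3 libraries and 14 (13.5%) at 200 or more. The matching shares over all genes at the minimum in COV318-MGP were not counted, so these are description only.

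By group, the OVCAR3 level is set beside that of the whole list. Of the 33 silenced zinc finger genes 19 were at 3 or fewer counts in all OVCAR3 libraries and 2 at 200 or more, whereas over all 385 listed zinc finger genes at the minimum 25 were at 3 or fewer and 258 at 200 or more. NDN had 0 counts in every OVCAR3 library, and so did XAF1, MAGEA11, H4C6, ZNF677 and LINC01287. At 200 or more in all OVCAR3 libraries were 4 of the 6 silenced Mullerian genes, near the 13 of 17 of their whole list at the minimum. It was 4 of the 12 silenced histone genes against 37 of 49 listed, and 0 of the 10 silenced interferon genes against 15 of 50 listed. MGMT had 498, 554, 817 and 738 counts in OVCAR3-CTR bulk, OVCAR3-MGPKO bulk, OVCAR3-CTR OCSC and OVCAR3-MGPKO OCSC. On normalized counts per kb of exon, SLPI had the highest smallest OVCAR3 level at 17143, followed by S100A6 at 14566, KRT19 at 6325 and H3C7 at 6251.

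The libraries labelled OVCAR3-MGPKO were compared with OVCAR3-CTR, although MGP was at 0 to 2 counts under both labels. Over the 203 genes the median log2FC was 0.028 in bulk and 0 in OCSC, and over all genes of the table it was 0 in both. In bulk 44 were higher by a log2FC of at least 1 and 28 lower, compared with 15.7% and 10.3% of all genes. In OCSC it was 21 higher and 19 lower, compared with 9.16% and 5.81%, and 25 and 13 when libraries were scaled by total counts. Low counts weigh heavily in these numbers. With at least 50 counts in 1 library of the pair, 23 of 104 silenced genes were higher and 10 lower in bulk (8.97% and 6.34% of all such genes), and 10 of 115 were higher and 14 lower in OCSC (4.01% and 3.89%).

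Interferon genes made up part of the higher group in bulk. All 6 of the silenced interferon genes with at least 50 counts in that pair were higher by a log2FC of at least 1. Of all 54 listed interferon genes with such counts, silenced in COV318-MGP or not, 33 were higher by a log2FC of at least 1 under the OVCAR3-MGPKO label in bulk and 0 lower by as much. In OCSC it was 10 higher and 2 lower of 57. GBP3, an interferon-induced GTPase, had 14 counts in OVCAR3-CTR bulk and 266 in OVCAR3-MGPKO bulk, a log2FC of 3.76 (3.05 to 4.71), and 183 and 177 in OCSC, a log2FC of -0.14 (-0.45 to 0.16). OAS1 had 15 and 120 counts in bulk, a log2FC of 2.53 (1.80 to 3.46), but 692 and 384 in OCSC, a log2FC of -0.94 (-1.13 to -0.76). SAMD9L was higher in both, by 2.06 (1.28 to 3.04) and 0.83 (0.30 to 1.39). RSAD2 had 2 and 23 counts in bulk and 1 and 23 in OCSC. Among the related families, PARP14 was higher by 1.41 in bulk (1.31 to 1.51) and 0.32 in OCSC (0.23 to 0.41).

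Among silenced genes with at least 50 counts in the pair, MMP7 was furthest from 0 on the higher side in bulk, with 2 and 55 counts in bulk, a log2FC of 3.97 (2.44 to 7.44), and 7 and 67 in OCSC, a log2FC of 2.98 (2.04 to 4.53). VEPH1 was higher in bulk with 22 and 227 counts and level in OCSC with 121 and 133. MUC15, a membrane mucin, had 42 and 162 counts in bulk and 90 and 309 in OCSC. ZNF253 had 4 and 13 counts in bulk and 0 and 52 in OCSC.

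FLG was lowest among them, with 3477 counts in OVCAR3-CTR bulk and 174 in OVCAR3-MGPKO bulk, a log2FC of -4.74 (-4.97 to -4.53), and 5593 and 1147 in OCSC, a log2FC of -2.38 (-2.47 to -2.29). CRIP1 was lower in both cultures too, with 3720 and 1179 counts in bulk and 9906 and 2632 in OCSC. LOC105370109 had 106 and 7 in bulk and 470 and 162 in OCSC. In OCSC the WNT ligand WNT7A had 1480 counts against 59, a log2FC of -4.72 (-5.14 to -4.37), while in bulk it had 88 against 185. RASL12, a small GTPase, had 100 against 16 in OCSC and the non-coding CERNA2 176 against 30. SLPI, KRT19, MEST and MGMT, all at the floor in COV318-MGP, differed between the OVCAR3 labels by at most 1.11 on the log2 scale in either culture.

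**Figure D5:**
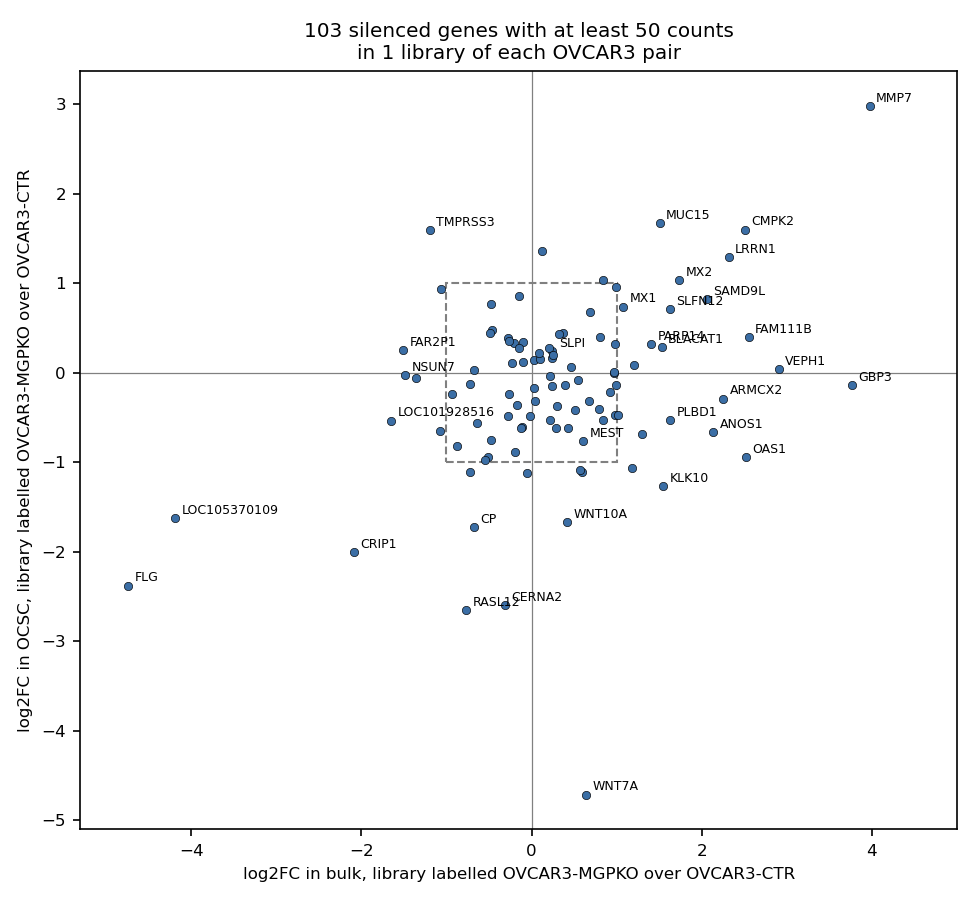
Points are the 103 silenced genes with at least 50 counts in 1 library of each OVCAR3 pair, with the log2FC of the library labelled OVCAR3-MGPKO over OVCAR3-CTR in bulk on the horizontal axis and in OCSC on the vertical axis. The dashed square marks a log2FC under 1 in size in both cultures and holds 60 of them. Above 1 in both cultures lie 5 (MMP7 farthest) and below -1 in both 3 (FLG farthest). The same counts were not made over all genes, so they describe the points only.

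Between the COV318-CTR libraries, both of which the choice used, the silenced genes had a median log2FC of OCSC over bulk of -0.0010. It was 0 over all genes and -0.087 over the genes at the minimum. Of the silenced genes 23 were higher and 21 lower by at least 1. The share of all genes was not counted here, so these counts are description only. KCNE3 was furthest up, from 561 counts in bulk to 2481 in OCSC (log2FC 3.60), and WFDC2 went from 688 to 1155 (2.21). MMP7 was furthest down, from 5032 to 363 counts (-2.33), and KRT19 went from 17608 to 1718 (-1.89).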

How the data were processed

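Reads were mapped by the authors with STAR (2.7.5c per the submitters' notes) against hg38. Deposited were a raw count per gene and, for each library, a normalized signal, which equals the count over a DESeq2 size factor (median of ratios). The annotation, the strand setting and which of several named TruSeq kits was used are not given in the sources used here. Size factors were recomputed over the 15518 genes above 0 in all 8 libraries and matched the deposited values to within 5.0e-05. log2FC was taken on log2(normalized count + 1), and a size of at least 1 was called. A ratio to a library at 0 counts is a lower bound against 3 counts. Other ratios carry exact 95% Clopper-Pearson intervals. With 1 library per condition no test was run and no pairing or replicate could be used. Genes were placed with RefSeq (GRCh38.p14) and exon lengths taken from GENCODE 44, found for 184 silenced genes. Promoter CpG content was planned but is void, with windows for 142 of 203 genes.

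The members and lists were chosen with earlier results of these data known. Named by rule were MGP, the 10 genes with the largest ratio to 3 counts, up to 4 such genes per list, in each OVCAR3 culture and direction the 3 largest log2FC among genes with 50 counts, the 4 highest per kb in OVCAR3, runs of 3 neighbours, and 3 genes on each side of each limit. Cell type markers were named for a list check. All other genes were chosen after their values were seen, and some genes are not reported here. Alternatives were edgeR TMM, scaling to total counts, size factors from fewer libraries, thinning, pseudocounts, minimum counts and thresholds. Tools were Python 3.11.15, numpy 2.4.6, pandas 2.3.3, scipy 1.17.1, R 4.3.3 and edgeR 4.0.16. Scripts were tested on simulated counts.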

Additional observations from a re-analysis of the deposited data

Results flagged for a closer look

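CPNE4, KLK10 and TMPRSS3, silenced in COV318-MGP, moved in opposite directions in the OVCAR3 cultures, with at least 50 counts in 1 library of each pair. CPNE4 had 50 counts in OVCAR3-CTR bulk and 153 in OVCAR3-MGPKO bulk, but 246 and 125 in OCSC, so the log2FC in bulk exceeded that in OCSC by 2.24. KLK10 had 232 and 913 counts in bulk and 595 and 264 in OCSC, a difference of 2.81. TMPRSS3 had 103 and 60 counts in bulk and 41 and 134 in OCSC, a difference of -2.78. With 1 library per condition these differences were not tested, and the share of all genes that moved in opposite directions was not counted.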

How the results depend on the processing

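Every count of genes within 1.5 times its first value was taken as unchanged, which held with medians for 54 of 83 alternatives. The 203 silenced genes became 73 at 0 counts in COV318-MGP, 98 and 47 with a minimum of 500 and 1000, and 342 from the OCSC libraries alone. Under TMM 201 of the 203 were met, under scaling to total counts all 203 with 10 more, and after thinning to the lowest total 187 genes met the choice, 146 of them among the 203. Genes at 200 or more in all OVCAR3 libraries were 15 with the limit of 0 counts and 22 with the minimum of 1000, and genes at 3 or fewer in all were 22 and 8. Genes higher in OVCAR3-MGPKO bulk were 26 with a pseudocount of 10, 29 and 23 with at least 10 and 50 counts, and 29 and 19 at thresholds of 1.5 and 2. Genes lower in bulk were 14 and 12 with pseudocounts of 5 and 10, 14 and 10 with at least 10 and 50 counts, and 14 and 9 at those thresholds. In OCSC, genes higher were 11 and 10 with pseudocounts of 5 and 10, 13 and 10 with those minimum counts, and 12 and 7 at those thresholds, and genes lower were 10 and 6 at the thresholds. The median log2FC in OCSC was -0.077 with at least 50 counts, and that of OCSC over bulk in COV318-CTR was 0.14 when scaled to total counts, which shifts all genes by 0.14 there, by 0.14 in OVCAR3 bulk and by 0.12 in OVCAR3 OCSC. The cause of these changes was not tested beyond the construction of each alternative. No paired analysis was possible because each condition has 1 library, and no replicate could be left out. Promoter CpG alternatives gave no value, since windows covered under 80% of the genes. The limit of 3 counts equals 0.0802 to 0.244 CPM at these depths.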
